A study of Homo sapiens with 4 samples.

Results

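The genes of 10 secreted factors were examined in U266 cells exposed to trabectedin: the chemokine genes CCL2, CCL3, CCL4, CCL5 and CXCL8, the cytokine genes IL10, IL23A, TNF and LTA, and the angiogenic factor gene VEGFA. They were taken by name and made up 10 of 22411 genes with a value. CCL2, CXCL8, IL10, IL23A, TNF and VEGFA stand for factors of the panel that the study assayed in co-culture supernatants. CCL3, CCL4 and CCL5 are related chemokines, and LTA, which was not in that panel, is a relative of TNF. Each gene was read from its transcript cluster, the unit for which the array gives a value, and where several clusters carried only that symbol the one with the highest mean was used. U266 is an established human multiple myeloma line, that is a line of malignant plasma cells, known to secrete IgE and its own IL-6. The arrays fell into 2 groups: 2 arrays of U266 cells treated with trabectedin for 24 h, and 2 control arrays of U266 cells given PBS, which the sample labels also call untreated. Trabectedin is a marine-derived drug that attaches to guanines in DNA. The labels name a dose of 2.5 nM in one place and of 2.5 μM in another. All arrays came from this single line cultured alone, so that no stromal cell, monocyte or endothelial cell stood beside it.

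Chemokines are small secreted proteins that attract leukocytes through G protein-coupled receptors, and cytokines act on neighbouring cells through receptor chains that pass the signal to STAT or NF-kB proteins. In the myeloma bone marrow, CCL3 is known for activating osteoclasts, VEGFA for vessel growth, and IL-10, TNF and lymphotoxin for acting on plasma cells and on the immune cells around them. The messenger RNAs of many of these factors are short-lived, since AU-rich elements near their 3′ end are bound by decay factors.

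The deposited values are on a log2 scale after RMA, so that a difference of 1 is a 2-fold difference. Over all 70523 features the median was between 5.33 and 5.37 on the trabectedin arrays and between 5.19 and 5.28 on the control arrays, and log2 values above 16 were given to 843 to 899 features of each array. All 8 measured plasma cell markers lay above the array median. Of 10 monocyte and macrophage markers, 2 lay above it (S100A9 and FCN1), and the mean over the 10 was 4.74 to 4.82 on the trabectedin arrays and 4.68 to 4.76 on the control arrays. CD14, the marker that defines monocytes, was at 3.996 and 4.268 with trabectedin and at 4.078 and 4.197 in control. Over the plasma cell markers the median log2 fold change was -0.06. Without overlap, 3 of 8 were lower (IRF4, SDC1 and XBP1), against 13.5% of all genes, and 1 was higher (CD38, 0.18), against 35.8%. SDC1 had a log2 fold change of -0.47. At least 1.5-fold lower were XBP1 (log2 fold change -0.78, or -0.56 without control replicate 1) and IRF4, which was at 13.84 and 13.32 with trabectedin and 14.85 and 13.90 in control (-0.80, or -0.33 without control replicate 1). By limma without the replicate number in the model and with Benjamini-Hochberg adjustment over all genes, 0 genes (0%) passed at an adjusted p under 0.05. This count, and the calls of CCL3 and IL23R, depend on leaving that number out, as given under the processing alternatives. At an unadjusted p under 0.05 there were 1635 higher and 1501 lower genes, and with each array scaled to its ribosomal protein genes 0 higher and 330 lower genes passed the adjusted test. Under that scaling the median gene had a log2 fold change of -0.13, against 0.10 in the deposited values. The smallest two-sided p of an exact permutation test with 2 arrays against 2 is 0.333.

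Of the 10 genes, 6 lay above the array median on all 4 arrays (CCL3, CCL4, CCL5, IL23A, LTA and VEGFA) and 4 lay below it on all 4 (CCL2, CXCL8, IL10 and TNF). The median is taken over all features, and by mean level 13415 of all 22411 genes lay above it, a share close to that of the 10. In this fit 0 of the 10 passed the adjusted test with trabectedin, and CCL3 and IL23A were the 2 with an unadjusted p under 0.05. CCL3 alone differed by at least 1.5-fold with groups that did not overlap, and it was lower with trabectedin. Over all genes, 4.52% were lower in this sense and 2.35% higher. Regardless of size, both trabectedin arrays lay below both control arrays in 2 of the 10 genes (CCL3 and LTA), against 13.5% of all genes, and above them in 3 (CXCL8, IL10 and IL23A), against 35.8% of all genes. The median log2 fold change was -0.003 over the 10 genes and 0.10 over all genes.

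**Figure D1:**
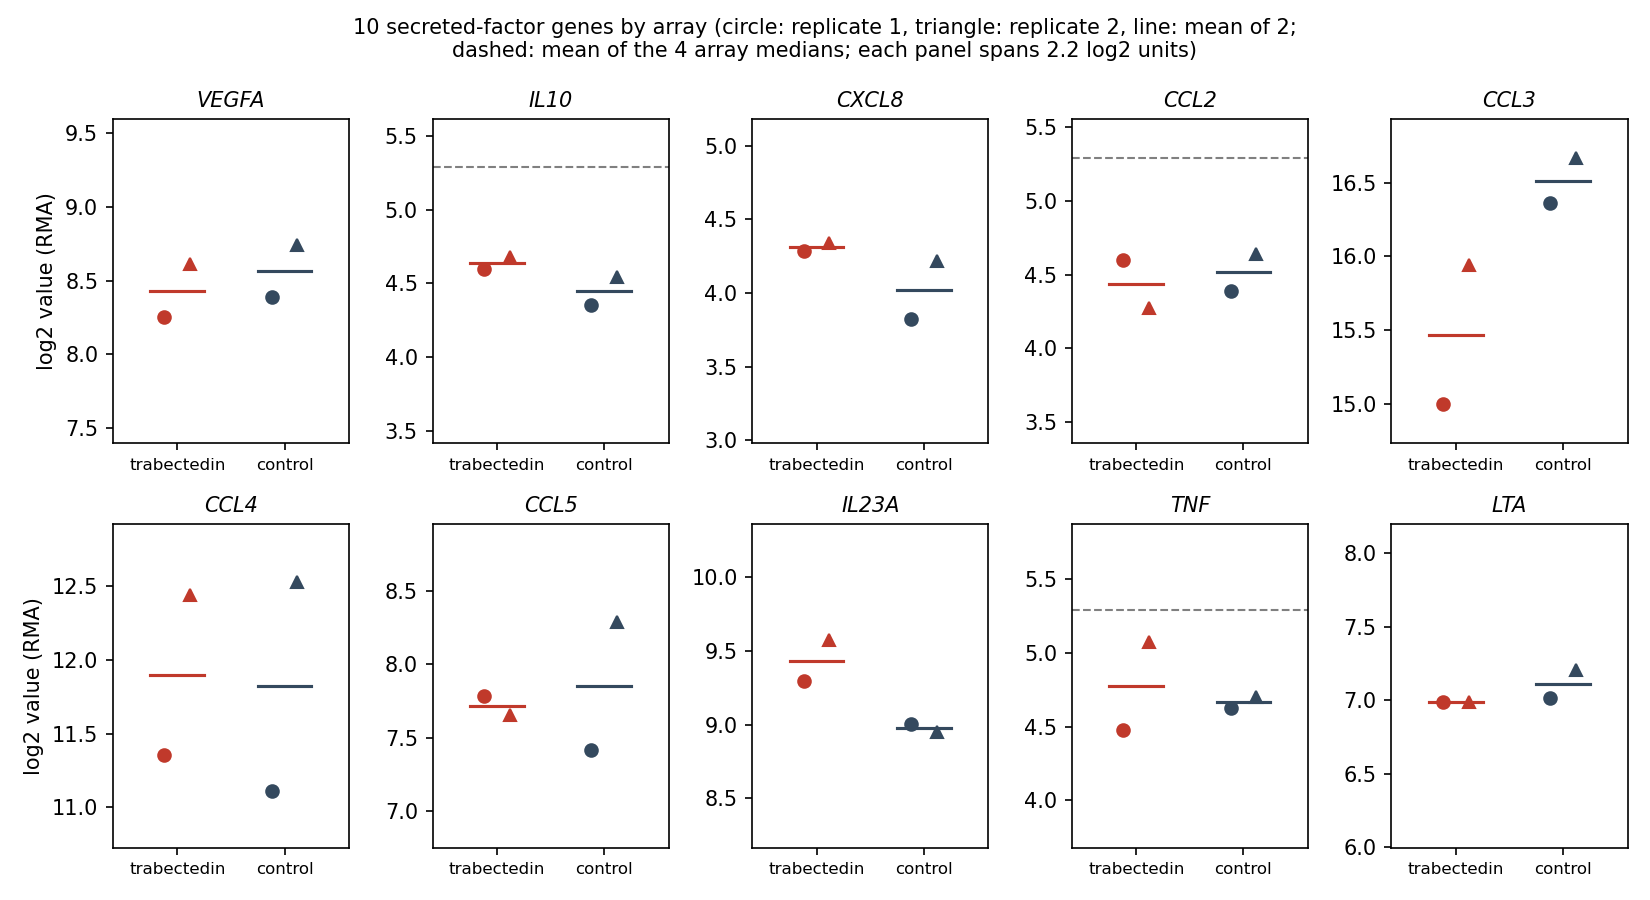
Log2 value of each of the 10 genes on every array, with trabectedin arrays in red on the left and control arrays in dark blue on the right of each panel, circles for replicate 1, triangles for replicate 2 and a line at the mean of 2. CCL3 had both trabectedin points (15.00 and 15.94) below both control points (16.36 and 16.67), while for CCL4 the 2 groups covered nearly the same range.

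The 3 genes with the largest absolute log2 fold change were CCL3, IL23A and CXCL8, and the stretch just before their start sites is shown with the letters TATAAA, which as a TATA element some way before a start site help to place it. The sequences are those of RefSeq on GRCh38.p14, each of 100 bases that end at the base before the start site, on the strand of the gene, with these letters in capitals.
CCL3 (chr17:36090144-36090243, minus strand): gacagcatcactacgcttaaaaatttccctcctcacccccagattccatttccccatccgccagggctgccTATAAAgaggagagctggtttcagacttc
IL23A (chr12:56338784-56338883, plus strand): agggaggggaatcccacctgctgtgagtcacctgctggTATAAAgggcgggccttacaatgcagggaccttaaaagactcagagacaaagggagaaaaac
CXCL8 (chr4:73740469-73740568, plus strand): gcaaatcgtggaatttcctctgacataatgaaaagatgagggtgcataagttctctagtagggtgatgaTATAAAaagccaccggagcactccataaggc
The match began at position -29 in CCL3 and -31 in CXCL8, counted back from the start site, and farther off, at -62, in IL23A, where it is no more than a match of letters. RefSeq windows, from 250 bases before to 50 after a start site, were at hand for CCL3, CXCL8, IL10, IL23A, LTA and TNF. TATAAA, searched on both strands, was found in 6 of their 11 windows (54.5%), with at least 1 such window in each of the 6 genes, against 11.5% of 35116 promoter windows of the same length. GGGCGG, the GC box, was found on either strand in 5 of the 11 (45.5%), against 45.0% of all windows. A letter pattern of NF-kB sites, also searched on both strands, was found in 2 of the 11 (18.2%), against 11.3% of all windows. A match of letters is a description and not a bound site.

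CCL3 encodes MIP-1 alpha, a chemokine for monocytes and T cells and an osteoclast-activating factor of myeloma. Its log2 value was 15.00 and 15.94 on the trabectedin arrays and 16.36 and 16.67 on the control arrays. Both trabectedin arrays were below both control arrays, and trabectedin replicate 1 was the lowest of the 4. The log2 fold change was -1.05 (standard error, SE, 0.34, 95% interval -1.93 to -0.16), that is 2.07-fold lower with trabectedin, with an unadjusted limma p of 0.0296 and an adjusted p of 0.288. The size depended on a single array. With trabectedin replicate 1 left out it was -0.57, which is less than 1.5-fold, and with trabectedin replicate 2 left out it was -1.52. Of all genes, 1.86% had a lower log2 fold change than CCL3. Both control values lay above 16, in the range where the rescaling of the deposited values is unknown, and its part in the size of the difference was not tested. As RNA of whole cultures was measured, fewer cells with CCL3 and less CCL3 RNA per cell cannot be told apart.

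CCL3 has near-identical copies, CCL3L1 and CCL3L3, whose signal on the array cannot be assigned to 1 gene. A pair of clusters carried both of these symbols together. In the first the log2 value was 15.051 and 15.616 with trabectedin and 16.003 and 15.988 in control, a difference of -0.66. In the second it was 14.48 and 15.05 with trabectedin and 15.34 and 15.36 in control, a difference of -0.59. The trabectedin arrays were thus below the control arrays in all 3 clusters of this chemokine and its copies, and how far the probes measure the same RNA was not tested.

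CCL4 encodes MIP-1 beta, the neighbour and close relative of CCL3. Its log2 value was 11.35 and 12.44 with trabectedin and 11.11 and 12.53 in control, so that the groups overlapped and both replicate 2 arrays were above both replicate 1 arrays. The difference between the 2 replicates was 1.09 with trabectedin and 1.42 in control, larger than that of 99.0% and 99.5% of all genes. The log2 fold change was 0.08 (SE 0.59, limma adjusted p = 0.959), and its 95% interval from -1.48 to 1.63 leaves room for a difference of more than 2-fold either way. The sign turned to -0.15 when arrays were scaled to ribosomal protein genes and ranged from -0.63 to 0.79 when 1 array was left out. The 2 clusters with the joint symbols of its copies CCL4L1 and CCL4L2 had differences of -0.37 and -0.18, also with groups that overlapped.

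**Figure D2:**
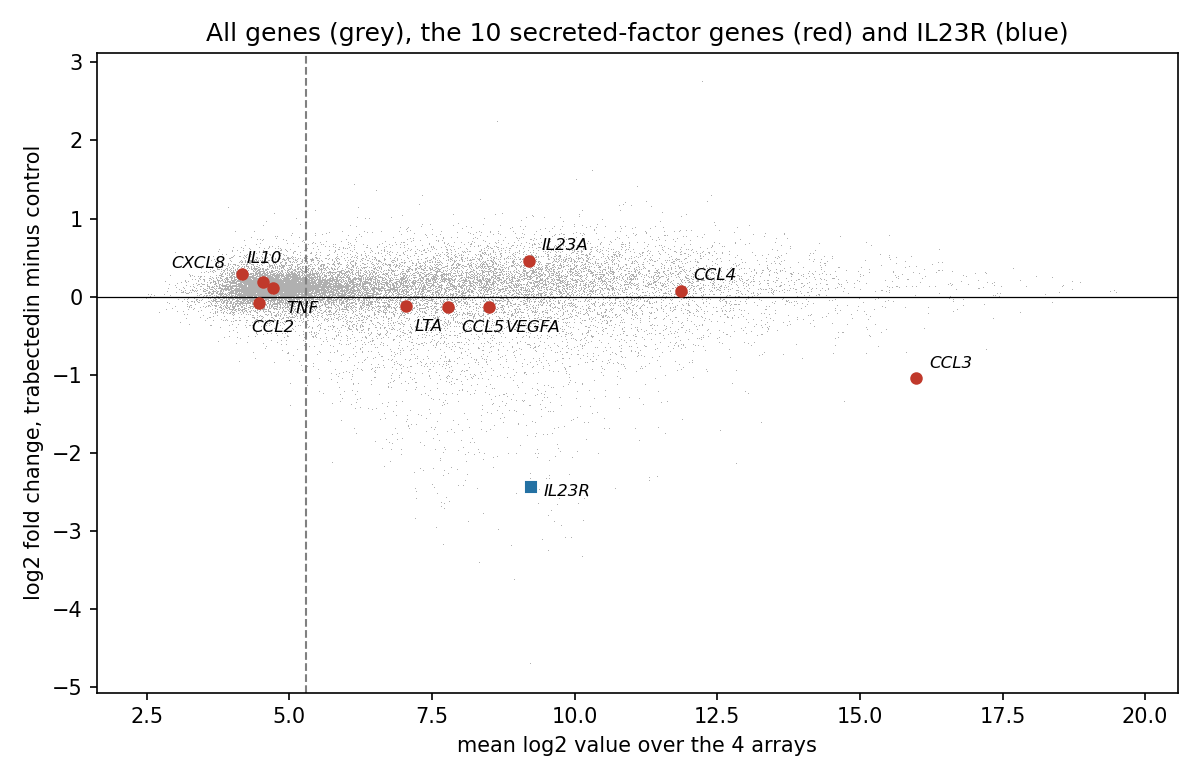
Log2 fold change (trabectedin minus control) of 22411 genes against their mean log2 value over the 4 arrays, with the 10 genes in red, the receptor gene IL23R in blue and the mean of the array medians as a dashed line. CCL3 lies apart from the other 9 at a mean log2 value of 15.99 and a log2 fold change of -1.05, and IL23R lies at -2.44.

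CCL5 encodes RANTES, a chemokine of T cells and monocytes. The arrays gave it 7.78 and 7.65 with trabectedin and 7.41 and 8.29 in control, and both trabectedin values lay between the 2 control values. The control replicates differed by 0.88, more than in 97.6% of all genes. The log2 fold change was -0.13 (SE 0.31, limma adjusted p = 0.855), and without control replicate 2 it was 0.31. CCL2 encodes MCP-1, which recruits monocytes. It was below the array median throughout, with log2 values of 4.60 and 4.27 with trabectedin and of 4.39 and 4.64 in control, and its groups overlapped (log2 fold change -0.08, SE 0.17, limma adjusted p = 0.835). CCL2 exceeded only 13.4% to 29.1% of the features of an array, where a value may hold little besides background hybridisation.

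CXCL8 encodes interleukin-8, which attracts neutrophils and is also angiogenic. Its log2 value was 4.29 and 4.34 with trabectedin and 3.82 and 4.22 in control, so that control replicate 1 stood lower than the other 3 arrays. The log2 fold change was 0.29 (SE 0.17, limma adjusted p = 0.501), with trabectedin above control on both arrays, and without control replicate 1 it was 0.09. CXCL8 exceeded 6.38% to 15.4% of features, and 38.7% of the 8996 genes at or below the array median also had both trabectedin arrays above both control arrays. Among those genes the median log2 fold change was 0.09.

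IL23A encodes the p19 subunit of interleukin-23, a cytokine that sustains T helper cells of the IL-17 type. It had log2 values of 9.297 and 9.572 with trabectedin and of 9.001 and 8.952 in control. Both trabectedin arrays were above both control arrays, and the control arrays differed by only 0.049. The log2 fold change was 0.46 (SE 0.14, 95% interval 0.10 to 0.82), that is 1.37-fold, with an unadjusted limma p of 0.0227 and an adjusted p of 0.259. It ranged from 0.32 to 0.60 when 1 array was left out and was 0.23 when arrays were scaled to ribosomal protein genes. Of all genes, 6.36% had a higher log2 fold change. IL12B encodes the p40 subunit with which p19 is secreted, and it lay below the array median at 4.75 and 4.73 with trabectedin and 4.52 and 4.89 in control.

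IL10 encodes an anti-inflammatory cytokine that also acts as a growth factor of plasma cells. It was below the array median, with log2 values of 4.60 and 4.68 with trabectedin and 4.35 and 4.54 in control. The groups did not overlap, but the log2 fold change of 0.19 (SE 0.12, limma adjusted p = 0.545) exceeded that of 70.3% of all genes, and it turned to -0.03 when arrays were scaled to ribosomal protein genes. TNF, the gene of tumour necrosis factor, was also below the array median, at 4.48 and 5.08 with trabectedin and 4.63 and 4.70 in control. Both control values lay between the trabectedin values (log2 fold change 0.11, SE 0.22, limma adjusted p = 0.831), and the sign turned to -0.11 under ribosomal scaling. TNF had 8 clusters with its symbol, 7 of which held identical values.

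LTA encodes lymphotoxin alpha, a relative of TNF whose gene lies next to it in the major histocompatibility complex. It was at 6.99 on both trabectedin arrays and at 7.02 and 7.21 in control. The trabectedin arrays lay just below the lower control array, and the log2 fold change was -0.12 (SE 0.12, limma adjusted p = 0.667). The 7 clusters with the symbol, of which 6 belong to alternative haplotypes of this region, gave differences from -0.14 to -0.12. LTB, which encodes the partner of lymphotoxin alpha at the cell surface, was at 5.49 and 5.52 with trabectedin and 5.52 and 5.47 in control, with groups that overlapped.

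VEGFA encodes the main growth factor of blood vessels and is a target of the hypoxia-inducible factors. Its log2 value was 8.25 and 8.61 with trabectedin and 8.39 and 8.74 in control. The groups overlapped, and the replicates of each differed by more than the group means did, namely by 0.36 with trabectedin and 0.35 in control. The log2 fold change was -0.13 (SE 0.19, 95% interval -0.64 to 0.38, limma adjusted p = 0.766), and it ranged from -0.32 to 0.05 when 1 array was left out. This interval includes a 1.5-fold lower level, so that these arrays do not show whether VEGFA stayed the same.

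The receptors of these factors were described from a list of 23 genes, of which 20 had a value and 8 lay above the array median. None passed the adjusted test, and the median log2 fold change was 0.10, as over all genes. By at least 1.5-fold without overlap 1 was lower and 0 were higher, against 4.52% and 2.35% of all genes. The lower one was IL23R, the chain that makes the interleukin-23 receptor specific, at 7.74 and 8.28 with trabectedin and 10.83 and 10.08 in control. All trabectedin values were thus below all control values by more than 1.5 log2 units. Its log2 fold change was -2.44 (SE 0.32, 95% interval -3.27 to -1.61), that is 5.43-fold lower, with an adjusted p of 0.0813. Scaled to ribosomal protein genes the limma adjusted p of IL23R was 0.0408. With the replicate number as a block IL23R also passed, as given under the processing alternatives. Whether it passed thus depended on the setting. IL12RB1, which pairs with IL23R, was at 7.14 and 7.23 with trabectedin and 7.04 and 7.12 in control.

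Gene length is given beside this result as a description. IL23R spans 127 kb in RefSeq, and of 1819 genes above the array median and longer than 100 kb, 45.0% were lower by at least 1.5-fold without overlap, with a median log2 fold change of -0.52. Only 2.31% of them had a value as low as IL23R. The 10 secreted-factor genes span 1.53 kb (IL23A) to 16.3 kb (VEGFA). Of 6436 genes above the array median and under 20 kb, 0.761% were lower by that measure and 0.202% had a log2 fold change as low as that of CCL3, which spans 1.89 kb. Of the same short genes, 13.2% had a log2 fold change above that of IL23A, and their median was 0.18. The lower plasma cell markers XBP1 and IRF4 span 6.01 kb and 19.7 kb. The part of length in these values was not tested.

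**Figure D3:**
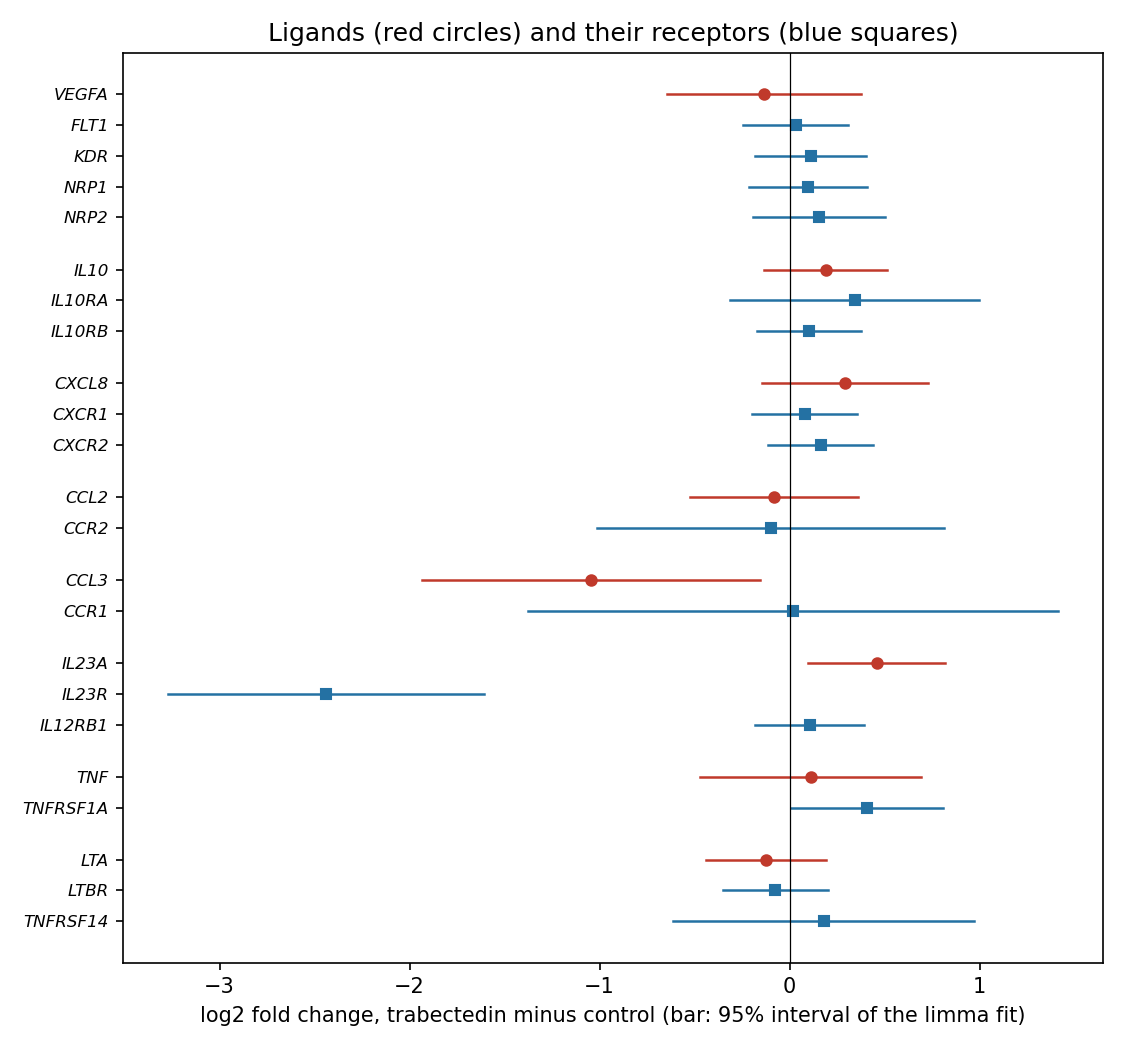
Log2 fold change (trabectedin minus control) of 8 of the secreted factors (red circles), each above the genes of its receptors (blue squares), with the 95% interval of the limma fit as a bar. IL23R at -2.44 has its whole interval, -3.27 to -1.61, below 0, next to its ligand IL23A at 0.46, while the interval of CCR1 reaches from -1.38 to 1.41.

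Among the other receptors above the array median, TNFRSF1A, the receptor of TNF and of secreted lymphotoxin, was at 6.91 and 7.25 with trabectedin and 6.63 and 6.71 in control (log2 fold change 0.41, SE 0.15, limma adjusted p = 0.351). CCR1, the receptor of CCL3 and CCL5, was at 8.52 and 9.53 with trabectedin and 8.38 and 9.63 in control. As for CCL4, its groups overlapped and both replicate 2 arrays were above both replicate 1 arrays. CCR2, the receptor of CCL2, was at 11.72 and 10.81 with trabectedin and 11.59 and 11.14 in control, and here both replicate 2 arrays were the lower ones. The chains of the interleukin-10 receptor had log2 fold changes of 0.34 (IL10RA, overlapping) and 0.10 (IL10RB), and TNFRSF14, a receptor of lymphotoxin alpha, of 0.18 (overlapping). FLT1, KDR and NRP1, receptors of VEGFA, CXCR1 and CXCR2, receptors of CXCL8, and LTBR, the receptor of the surface lymphotoxin complex, were all below the array median. CCR3 and TNFRSF1B are not analysed here, as no cluster carried the symbol alone.

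The same co-culture panel held 6 further factors, of which by mean level 3 lay above the array median (IL6, CSF3 and CXCL10) and 3 below it (IFNG, IL1B and IL4). CXCL10 and CSF3 were close to it, with means of 5.298 and 5.43 against 5.292 for the mean of the array medians. On most arrays CXCL10 lay below the array's own median. None passed the adjusted test and none differed by 1.5-fold without overlap. IL6, the gene of the main myeloma growth factor, was at 8.61 and 8.42 with trabectedin and 8.05 and 8.23 in control. Both trabectedin arrays were above both control arrays, with a log2 fold change of 0.38 (SE 0.13, limma adjusted p = 0.326), or 1.30-fold. CXCL10, an interferon-induced chemokine, had a log2 fold change of 0.17, and CSF3, a granulocyte growth factor, of 0.05, both with groups that overlapped.

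In 9 lists of related genes, the co-culture panel and the receptors included, 199 genes had a value. None passed the adjusted test, and the median log2 fold change was 0.08. By at least 1.5-fold without overlap 7 were lower and 1 was higher, against 4.52% and 2.35% of all genes. Of 43 other chemokine ligand genes 36 had a value and 7 lay above the array median. XCL2, a lymphocyte chemokine, was at 5.30 and 5.31 with trabectedin and 6.14 and 5.62 in control (log2 fold change -0.58, limma adjusted p = 0.321). The gene of this list past 1.5-fold was its near-identical copy XCL1, below the array median and named after its values were seen, at 4.54 and 4.66 with trabectedin and 5.88 and 4.78 in control. Its log2 fold change was -0.73 (SE 0.38), and -0.18 without control replicate 1, so that 1 array carried this count. XCL1 spans 5.465 kb. CCL27 and CCL19, lymphocyte chemokines, had log2 fold changes of 0.19 and 0.16, which turned to -0.04 and -0.06 under ribosomal scaling.

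Of 53 other interleukins and haematopoietic growth factors 49 had a value, 12 lay above the array median and 0 passed 1.5-fold without overlap. IL17F, a cytokine of the T helper cells that interleukin-23 sustains, had a log2 fold change of 0.46. But this was set by trabectedin replicate 2, which was at 6.01 where the other 3 arrays were between 5.11 and 5.21. On those 3 arrays IL17F lay below the array's own median. Only through trabectedin replicate 2 did its mean, 5.38, lie above the mean of the array medians, 5.292. The remaining genes named from this list were IL16, a T cell attractant (0.18), and FLT3LG, a growth factor of dendritic cell precursors (-0.18). Of 16 other TNF superfamily ligands 14 had a value and 0 passed 1.5-fold without overlap. TNFSF13B, the plasma cell survival factor BAFF, had a log2 fold change of -0.23.

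**Figure D4:**
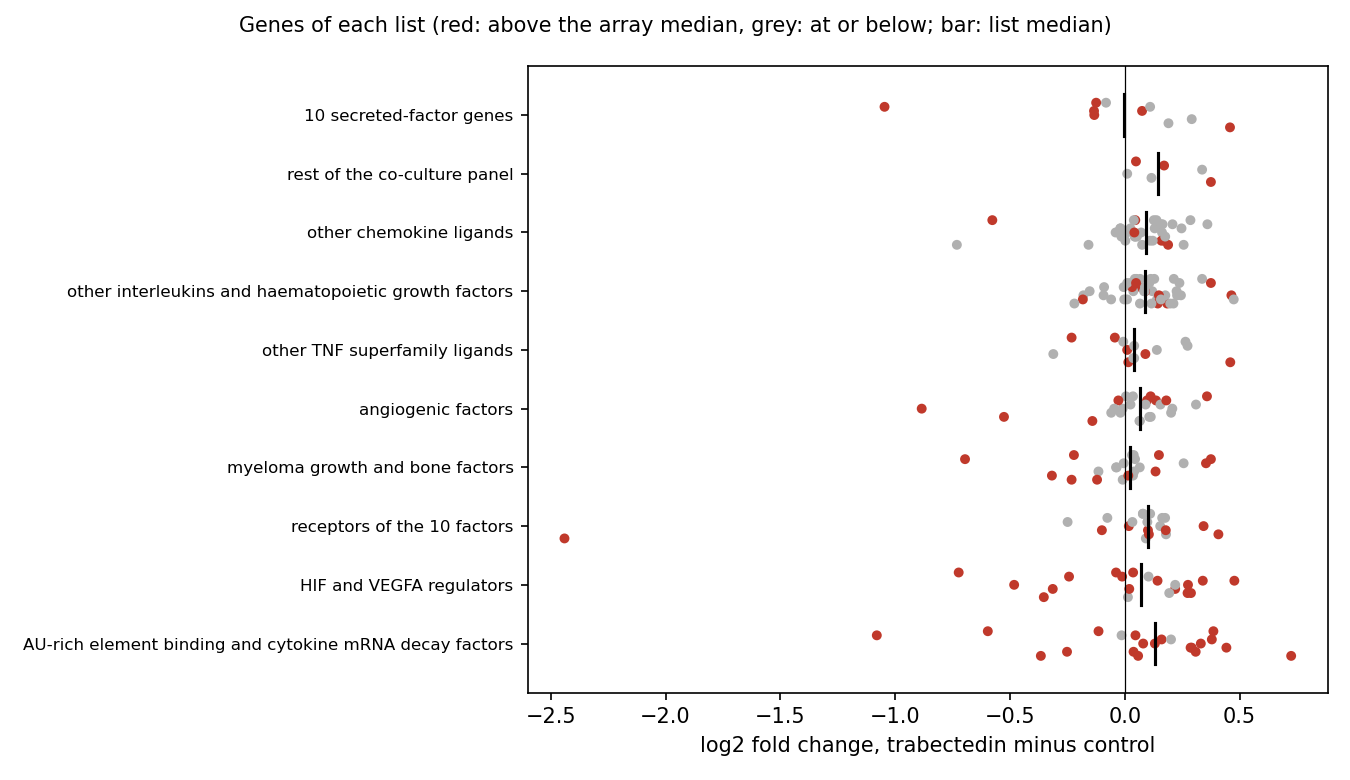
Log2 fold change (trabectedin minus control) of every measured gene of the 10 secreted factors and of the 9 related lists, red where the gene lay above the array median and grey where it did not, with a bar at each list's median. The medians lie between -0.003 and 0.14, and the point farthest to the left is IL23R at -2.44.

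Of 26 angiogenic factors 25 had a value, with 1 lower and 0 higher by at least 1.5-fold. The lower one was SEMA3A, a semaphorin that opposes VEGFA at neuropilin, at 5.49 and 5.90 with trabectedin and 6.72 and 6.44 in control (log2 fold change -0.88, limma adjusted p = 0.161). THBS1, an inhibitor of vessel growth, had a log2 fold change of -0.53 and FGF2, a vessel growth factor, of -0.14. Of 23 myeloma growth and bone factors 22 had a value, with BMP6 the 1 lower gene. BMP6, a bone morphogenetic protein made by plasma cells, was at 10.86 and 10.74 with trabectedin and 11.68 and 11.31 in control (log2 fold change -0.70, limma adjusted p = 0.177). TGFB1, which acts on osteoblasts, had a log2 fold change of 0.35 and NRG2, a ligand of the ERBB receptors, of -0.32. SEMA3A spans 537 kb and BMP6 156 kb, so that both belong to the long genes described above, whereas THBS1 spans 18.4 kb.

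Regulators of VEGFA and of cytokine messenger RNA were mostly above the array median, with 16 of 20 measured genes of the hypoxia list and 19 of 21 of the decay list. Of all genes, 13415 of 22411 were above it. In the hypoxia list 1 gene was lower and 0 were higher by at least 1.5-fold. This was PDK1, a hypoxia-induced kinase of mitochondria that spans 169 kb, at 9.49 and 9.53 with trabectedin and 10.49 and 9.98 in control (log2 fold change -0.72, limma adjusted p = 0.220). EGLN1, the oxygen sensor that marks hypoxia-inducible factor for destruction, had a log2 fold change of -0.48, NDRG1 of -0.35 and BNIP3, both hypoxia-induced, of 0.48. HIF1A itself was at 11.96 and 11.98 with trabectedin and 12.10 and 12.33 in control.

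In the decay list 2 genes were lower and 1 was higher by at least 1.5-fold without overlap, and the median log2 fold change was 0.13. PARN, a poly(A)-specific ribonuclease, was at 9.55 and 10.05 with trabectedin and 10.85 and 10.91 in control (log2 fold change -1.08, SE 0.19, limma adjusted p = 0.124), in a gene of 195 kb. MAPKAPK2, the kinase that restrains the decay factor tristetraprolin, was at 11.45 and 11.51 with trabectedin and 12.18 and 11.97 in control (log2 fold change -0.60, limma adjusted p = 0.156), in a gene of 49.4 kb. ZFP36L2, a relative of tristetraprolin that binds AU-rich elements, was at 11.95 and 11.73 with trabectedin and 10.92 and 11.31 in control (log2 fold change 0.72, SE 0.18, limma adjusted p = 0.195). That the groups of these 3 genes did not overlap is part of how they were counted. DCP2, a decapping enzyme, had a log2 fold change of 0.44.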

How the data were processed

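RNA of U266 cells, from separate experiments per the methods, was hybridized to Affymetrix Human Transcriptome Arrays. The authors ran RMA in Affymetrix Expression Console and deposited its log2 values, which are corrected for background, quantile normalized and summarised over the probes of a cluster. Version, annotation and the rescaling that gives values above 16: not given in the sources used here. The labels name TRIzol for extraction, the methods a column kit.

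Of 70523 features, 23781 had 1 symbol in the platform annotation, 1543 several and 45199 none. Older symbols were updated through RefSeq, for 306 clusters. Of 22411 genes, 528 had several clusters, and the one with the highest mean was used. Gene lengths and promoter sequences came from RefSeq on GRCh38.p14. Groups were compared by limma 3.58.1 (lmFit, eBayes, no block) in R 4.3.3, with Benjamini-Hochberg adjustment over all genes, and the fit was tested on simulated data. That the replicates came from separate cultures is stated. The eBayes step draws the spread of each gene between arrays towards a value estimated over all genes, so that p-values rest on both. With only 2 arrays a group, estimates for a single gene remain imprecise. A gene counted as above the array median where its mean exceeded the mean of the array medians.

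Named genes were the 10 factors, their direct partners, and from each of 9 lists up to 4 genes above the array median with the largest log2 fold change among those whose groups did not overlap. HIF1A, TNFRSF14, XCL1 and the markers were added for context. The genes and lists were chosen with earlier results of these data known. Alternatives left out each array, set the replicate number as a block, and changed normalization, filter, trend, cluster rule, test and fold threshold.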

Additional observations from a re-analysis of the deposited data

How the results depend on the processing

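With 1 array left out in turn, the genes called lower numbered 0 to 223 and those called higher 0 to 5, of the 10 factors 0 to 2 were lower and 0 to 1 higher by at least 1.5-fold without overlap, and of the related genes 0 to 8 were higher in this sense and 0 to 1 called. The 223 lower calls came without trabectedin replicate 2. Log2 fold changes that turned sign on leaving out an array ranged from -0.24 to 0.082 (CCL2), -0.63 to 0.79 (CCL4), -0.57 to 0.31 (CCL5), -0.19 to 0.41 (TNF), -0.32 to 0.048 (VEGFA), -0.61 to 0.64 (CCR1), -0.56 to 0.36 (CCR2), -0.071 to 0.17 (CSF3), -0.15 to 0.22 (IL12B), -0.091 to 0.11 (IL1B), -0.0061 to 0.24 (IL4) and -0.013 to 0.034 (LTB).

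With the replicate number as a replicate block, 499 genes were called higher and 893 lower, among them 1 of the 10 factors, CCL3 (log2 fold change -1.05, adjusted p = 0.0369), and 3 related genes, IL23R (adjusted p = 0.0230), PARN (0.0244) and BMP6 (0.0369), besides the plasma cell markers XBP1 (0.0366) and IRF4 (0.0391). The numbers are not stated to mark a shared experiment. The differences between replicates 2 and 1 with trabectedin correlated with those in control across genes at r = 0.56 over all genes and 0.64 over genes above the array median, a description over genes that are not independent.

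Scaled to ribosomal protein genes, 330 genes were called lower, 2 related genes (IL23R and PARN) were called, and past 1.5-fold 11 related genes lay lower and 0 higher. Log2 fold changes that turned sign were those of IL10 (-0.034), CCL4 (-0.15), TNF (-0.11), CCL27 (-0.035), CCL19 (-0.064), IL16 (-0.039), IL12RB1 (-0.12), IL10RB (-0.12), FLT1 (-0.19), KDR (-0.11), NRP1 (-0.13), CXCR1 (-0.15), CXCR2 (-0.061), CCR1 (-0.21), IL12B (-0.19), LTB (-0.21), IL1B (-0.21), IL4 (-0.11), CSF3 (-0.18) and CXCL10 (-0.053). With quantile normalization repeated, those of FLT1 (-0.067), NRP1 (-0.0042), CXCR1 (-0.0056), CCR1 (-0.014), IL12B (-0.062), LTB (-0.073), IL1B (-0.090) and CSF3 (-0.035) did so. These settings shift all genes, and the cause was not tested further. By the methods' t-test at their unadjusted threshold 1400 genes were higher and 992 lower, 22 related genes among them and 0 of the 10 factors, and after Benjamini-Hochberg 0 were. At the lower fold threshold tried, 1 of the 10 factors was higher (IL23A), and 11 related genes were lower and 13 higher. At a threshold of 2, CCL3 was still past it, with 2 related genes lower and 0 higher. Of 590 log2 fold changes of named genes under alternatives, 533 kept their direction and side of the threshold, 48 turned sign, 9 came to pass the test and 0 ceased to. Signal over background was not analysed here, so that values below the array median say little of the level.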
